A study of Mus musculus with 39 samples.

Results

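The step from day 2 to day 4 of differentiation in wild-type cells was followed across all expressed genes, by setting the 4 wild-type day 4 libraries against the 4 wild-type day 2 libraries. These 8 libraries were chosen by their labels, out of 39 in the series. All are polyadenylated RNA of C2C12, an immortalised line of mouse myoblasts that fuses into myotubes when serum is withdrawn. Growing cells were moved from fetal bovine serum into medium with 2% horse serum, and RNA was taken 4 days (WT day 4) or 2 days (WT day 2) later; these cells carry no edit. The comparison line, FlncKO, was made from C2C12 with CRISPR/Cas9 and a guide to the first exon of Flnc (filamin C, an actin cross-linker of the Z-disc), and its day 4 (4 libraries) and day 2 (3 libraries) samples are used below as a second instance of the same step. Libraries carry the replicate numbers 1, 3, 4 and 5 (1, 3 and 5 at KO day 2), and per-library values are listed in that order. The labels do not say that these were separate cultures, so p-values measure the spread between samples, which may be technical. In the main test that spread was estimated from all 39 libraries in 10 groups. The SEs beside the p-values come from the 8 libraries alone, so the 2 measure different spreads.

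Myoblasts become muscle in a fixed sequence. MyoD and Myf5 commit the cell, myogenin and the MEF2 factors switch on the muscle genes, and the cell leaves the cycle with the help of the CDK inhibitor p21. Committed cells then align and fuse through the membrane proteins myomaker and myomerger, and the resulting myotube assembles sarcomeres from thick (myosin) and thin (actin, tropomyosin, troponin) filaments held by the Z-disc and M-band, with the triad coupling excitation to calcium release. In culture some cells, called reserve cells, stay single and undifferentiated. RNA of a whole dish holds both kinds, so a change in the number of cells of a type and a change of RNA per cell cannot be told apart.

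WT day 4 libraries held 11.5 to 19.3 M counts (mean 16.5 ± 3.43, SD, n = 4) and WT day 2 libraries 18.0 to 26.6 M (22.4 ± 3.56, n = 4), a difference of -5.96 M (exact permutation test, two-sided, p = 0.0571, where 4 against 4 cannot go below 0.0286). Levels below are CPM, counts divided by the TMM-scaled library total in M. All 8 myotube markers (Myh3, Myh8, Ckm, Acta1, Myog, Ttn, Tnnt3 and Actn2) were higher on average at day 4 by log2 0.61 to 3.82. The groups did not overlap in 6 of the 8, and 2 of them, Myh8 and Actn2, passed the test, beside 4.33% of all genes called higher. The share of all genes without overlap was not counted. One WT day 2 library stood apart: replicate 4 had 44587 CPM summed over 28 genes of the unfolded protein and integrated stress response, where the other day 2 libraries had 6980 to 7219 and the day 4 libraries 7137 to 8053. The total counts of called genes and the stress response results are given with and without it. For other calls lost on omission of 1 library, the omission with the highest adjusted p is given. It need not be this library, nor the only omission that ended the call.

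Of 13780 genes tested (edgeR quasi-likelihood test, Benjamini-Hochberg adjusted p under 0.05), 597 were higher at day 4 (4.33%) and 889 were lower (6.45%). These shares are the background for the list counts of the main test below. The median absolute log2 change of the 1486 called genes was 1.28, and the median over all genes tested was -0.05. Among the called genes, 382 rose and 604 fell by at least 2-fold, and 191 rose and 190 fell by at least 4-fold. In 507 of the higher and 569 of the lower genes no day 4 library overlapped a day 2 library. Both counts were made among called genes, and the share over all tested genes was not counted. The counts rested on single libraries: with 1 left out they lay between 305 and 597 higher and 477 and 894 lower. Removing WT day 2 replicate 4 left 322 higher and 579 lower, removing WT day 2 replicate 3 left 305 and 540, and removing WT day 4 replicate 1 left 366 and 477. With the replicate number as a block the counts were 821 higher and 1044 lower, of which 517 and 662 were among those of the main test. The block was fitted to the 8 libraries alone, over 12177 genes, so it differs from the main test in libraries as well as pairing. Those 8 libraries without a block gave 398 higher and 335 lower. List counts with the block below stand beside the block's own totals. Some lists had fewer members tested there, such as 21 thin filament genes against 23 and 23 interferon genes against 28.

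**Figure D1:**
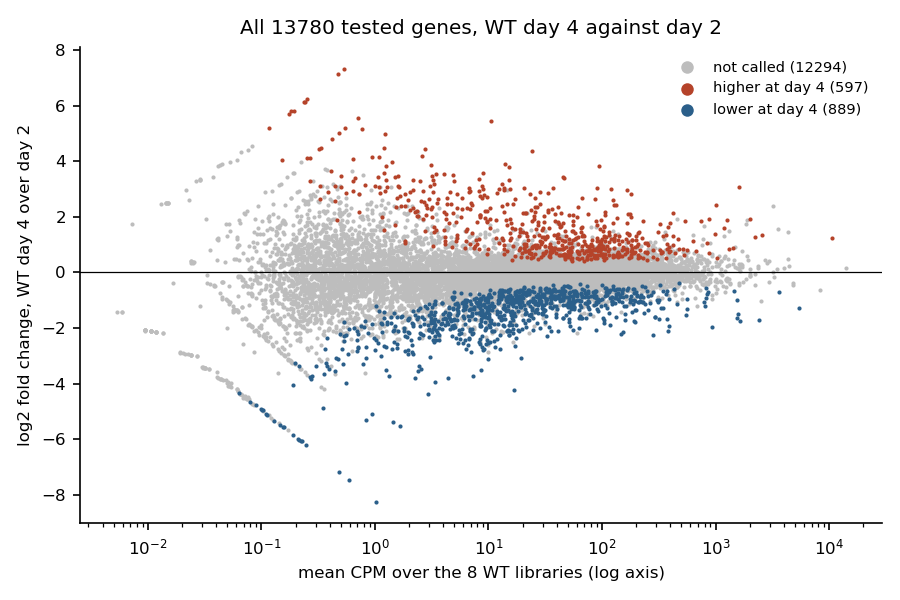
Each point is 1 of the 13780 tested genes, with the mean TMM-scaled CPM of the 8 libraries on a log x axis and the log2 change, WT day 4 over WT day 2, on the y axis; coloured points are the 597 higher and 889 lower genes. Called genes lie on both sides of 0.

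The 12 largest log2 increases, among called genes with a mean of at least 5 CPM and no overlap between the groups, were those of Fxyd6, Myl2, Atp6v1c2, Myh8, Limch1, Plet1, Actn2, Cav3, Casq1, Chil1, Trp63 and Myh6. Myl2 (the regulatory light chain of slow and cardiac myosin) had 65.5, 36.6, 14.3 and 68.5 CPM at day 4, against 2.40, 0.991, 0.381 and 5.31 CPM at day 2 (log2 change 4.36 ± 0.91 SE, adjusted p = 0.000732). Atp6v1c2, a subunit of the proton pump of acidic compartments, had 27.7, 20.5, 32.3 and 24.3 CPM at day 4 and 1.71, 1.14, 2.57 and 1.57 CPM at day 2 (3.90 ± 0.27, adjusted p = 3.32e-05). Atp6v1c2 was the more even of the pair. No overlap between the groups was a condition of this choice and of the largest decreases below, so for those genes it is not a further result. Fxyd6, of a family that modulates the sodium pump, averaged 20.4 ± 9.88 CPM at day 4 and 0.454 ± 0.620 CPM at day 2, 1 of whose libraries had no read. The epithelial factor gene Trp63 (p63) rose to 23.9 ± 4.43 CPM at day 4, against 2.63 ± 2.42 CPM at day 2 (adjusted p = 0.00946).

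The 12 largest decreases were Nefl, Fbln1, Hgf, Aurkb, Pimreg, Dlgap5, Clmp, Lgals3bp, Plk1, Ccnb2, Spn and Apol9a. Among them Aurkb, Plk1, Ccnb2 and Dlgap5 act in mitosis, Fbln1 is a matrix glycoprotein, and Hgf is the growth factor that activates muscle stem cells. Hgf had 4.03, 0.931, 8.38 and 2.48 CPM at day 4, against 15.2, 25.1, 63.0 and 34.3 CPM at day 2 (log2 change -3.09 ± 0.77, adjusted p = 0.000292), and its receptor gene Met fell as well, to 30.6 ± 11.8 CPM at day 4 against 76.1 ± 9.18 CPM at day 2 (-1.31 ± 0.30, adjusted p = 0.0108; 0.0548 without WT day 4 replicate 3). Nefl, the light neurofilament chain, had 0.841, 2.61, 1.90 and 1.499 CPM at day 4 and 26.6, 51.9, 3.38 and 44.1 CPM at day 2 (-4.23 ± 0.95, adjusted p = 0.00979). The ligand, the receptor and Nefl were thus each lower in all 4 day 4 libraries, with day 2 replicate 4 the lowest day 2 library for Nefl and the highest for Hgf. For Hgf and Nefl that separation was a condition of their choice.

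Of 28 tested myogenic transcription factors and inhibitors, 3 rose (Mef2c, Tead4 and Smyd1) and 2 fell (Id3 and Hdac9), beside 4.33% of all genes higher and 6.45% lower. Their log2 changes ran from -3.48 to 2.84, with 14 positive and 14 negative (median -0.06). Mef2c, the MEF2 factor that drives sarcomere genes, had 403, 219.6, 249 and 395 CPM at day 4, against 41.0, 27.5, 21.3 and 86.7 CPM at day 2 (log2 change 2.84 ± 0.50, adjusted p = 0.000365). All 4 day 4 libraries were above the highest day 2 library. Within the MEF2 family, Mef2c took 20.7 ± 4.27% of the summed CPM per kilobase of exon at day 4 and 4.52 ± 2.705% at day 2, while Mef2d took the largest share on both days (53.2 ± 8.54% and 59.1 ± 8.59%).

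Myog, the gene of myogenin, had 1073, 1539.8, 1311 and 915 CPM at day 4, against 548, 456, 589 and 706 CPM at day 2. The groups did not overlap, but the change did not pass the test (log2 1.07 ± 0.21, adjusted p = 0.236; 0.0169 with the replicate block). Myod1 averaged 127 ± 15.5 CPM at day 4 and 145 ± 49.4 CPM at day 2 (adjusted p = 0.68), and Myf5 65.3 ± 16.7 and 110.3 ± 64.8 CPM (adjusted p = 0.227), with overlapping groups in both. Myf6 stayed at or below 1.73 CPM in every library of both days. Id3, which binds and blocks the partners of MyoD, fell to 3.24, 3.91, 2.79 and 0.461 CPM at day 4 against 10.5, 17.4, 12.3 and 4.01 CPM at day 2 (-2.11 ± 0.79, adjusted p = 0.00928). Tead4, the factor that binds M-CAT sites, rose by log2 0.95 ± 0.18 (adjusted p = 0.0239; 0.0979 without WT day 2 replicate 3). Smyd1, a muscle lysine methyltransferase, rose by 1.21 ± 0.33 (adjusted p = 0.0333) and Hdac9, a repressor of MEF2, fell by 1.15 ± 0.28 (adjusted p = 0.0266). The calls of Smyd1 and Hdac9 were each lost in 5 of 8 omissions of a single library (adjusted p up to 0.12 without WT day 2 replicate 4 and up to 0.0884 without WT day 4 replicate 3, in that order).

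Of 22 tested fusion genes, 3 rose (Tmem182, Ncam1 and Mymx) and 2 fell (Kirrel and Dock5), beside 4.33% of all genes higher and 6.45% lower. Their median log2 change was 0.14, and with the replicate block 7 rose and 2 fell. Mymk (myomaker) had 1559, 2229, 1789 and 1239 CPM at day 4, against 872, 574, 584 and 710.0 CPM at day 2. No day 4 library fell within the day 2 range, although the call was missed (log2 1.31 ± 0.23, adjusted p = 0.068; 0.00774 with the block). Mymx (myomerger) had 79.5, 159, 198 and 142 CPM at day 4 and 45.6, 39.0, 30.3 and 79.5 CPM at day 2 (1.57 ± 0.41, adjusted p = 0.0364), the lowest day 4 and the highest day 2 library being level. That call was lost in 6 of 8 omissions, with adjusted p up to 0.12 without WT day 2 replicate 4.

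Tmem182, a muscle membrane protein described as a brake on fusion in mice, had 235, 213, 246 and 329 CPM at day 4 and 68.7, 59.0, 39.1 and 132 CPM at day 2 (1.78 ± 0.39, adjusted p = 0.00303), and its call held in all 8 omissions. Ncam1, the neural cell adhesion molecule, averaged 559 ± 93.3 CPM at day 4 and 284 ± 91.0 CPM at day 2 (adjusted p = 0.0236; 0.104 without WT day 2 replicate 3). Kirrel, an immunoglobulin-type adhesion protein whose fly relatives recognise fusion partners, fell to 51.8 ± 10.6 CPM at day 4 against 130.0 ± 51.9 CPM at day 2 (-1.33 ± 0.31, adjusted p = 0.0037). Dock5, a Rac activator, fell to 28.0 ± 2.46 CPM against 57.4 ± 6.96 CPM at day 2 (adjusted p = 0.0157; 0.0609 without WT day 4 replicate 3). Cdh2 and Npnt, an adhesion cadherin and a matrix ligand of integrin, had log2 changes of 0.89 ± 0.27 and 1.00 ± 0.44. They passed with the block (adjusted p = 0.00648 and 0.00792) but not in the main test (0.0624 and 0.0897). Cdh15 (M-cadherin) and Myof (myoferlin) had -0.30 ± 0.27 and -0.29 ± 0.24 and did not pass.

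**Figure D2:**
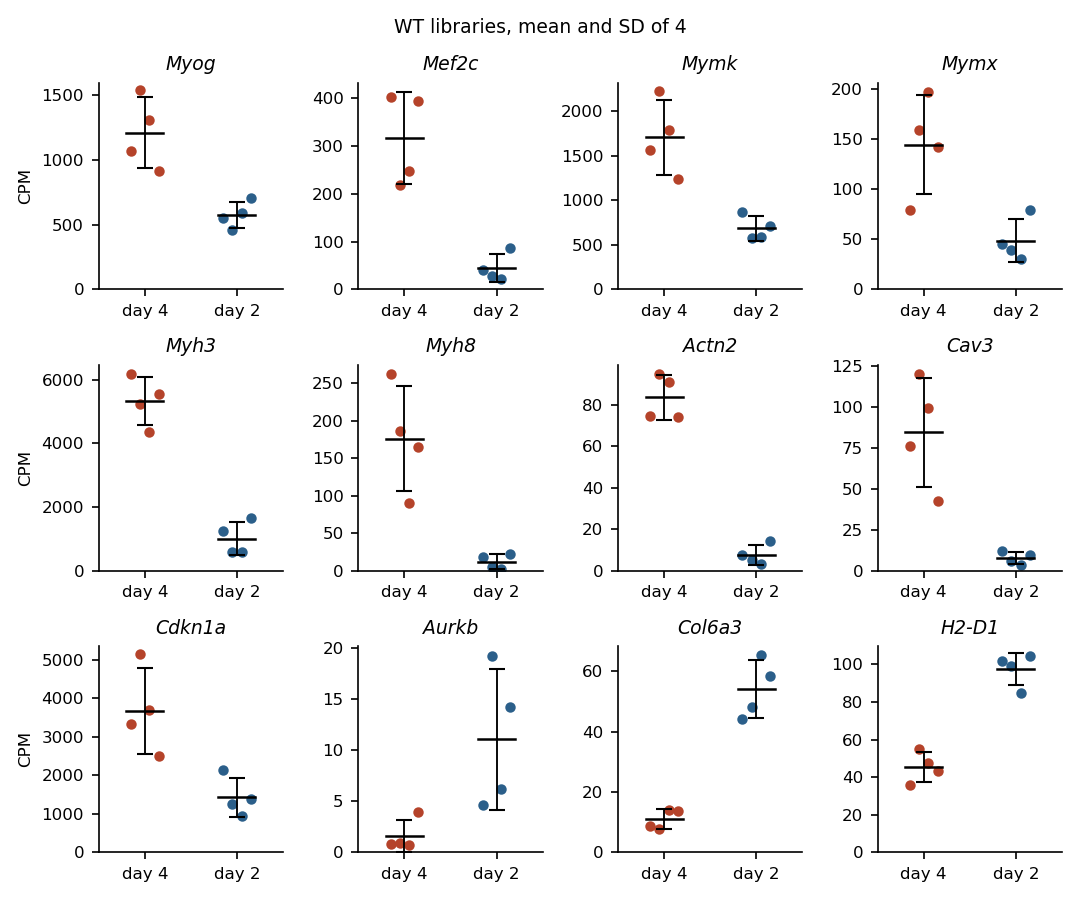
TMM-scaled CPM of 12 genes in the 4 WT day 4 libraries (left in each panel) and the 4 WT day 2 libraries (right), 1 point per library, with the mean and SD of 4 as bars. Day 4 lies above day 2 for Myog, Mef2c, Mymk, Myh3, Myh8, Actn2, Cav3 and Cdkn1a with no shared range, and below it for Aurkb, Col6a3 and H2-D1; in Mymx the groups meet at 79.5 CPM.

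Many sarcomere genes rose, and none fell by the test. Of the thick filament and M-band genes 14 of 24 rose (median log2 change 2.09), of the thin filament genes 12 of 23 (1.51), and of the Z-disc and costamere genes 12 of 27 (1.16), beside a median of -0.05 over all genes and 4.33% of all genes higher. The other members did not pass the test, and 2 in each list had negative changes, such as Mylk2 (-0.32), a myosin light chain kinase, and Tmod2 (-0.45), a tropomodulin. The summed level of the 24 thick filament and M-band genes was 27821, 27228, 22173 and 23793 CPM at day 4, against 8569.5, 5718, 4916 and 9303 CPM at day 2. The thin filament sums were 20153 to 28820.0 CPM at day 4 and 6104 to 11096 CPM at day 2. Neither pair of ranges overlapped. Block counts were 22, 18 and 15 of these lists, beside 20, 12 and 13 for the same 8 libraries without a block. The lowest counts on omission of 1 library were 7 thick filament genes (without WT day 2 replicate 3 or 4), 2 thin filament genes (without WT day 2 replicate 4) and 6 Z-disc genes (without WT day 2 replicate 3).

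Among thick filament genes, Myl4 (the embryonic and atrial essential light chain) had 2233, 3894, 3256 and 2120.1 CPM at day 4 and 378, 258, 223 and 487 CPM at day 2 (log2 change 3.10 ± 0.33, adjusted p = 0.00458). Myh8, the perinatal myosin heavy chain, had 262, 187, 90.9 and 166 CPM at day 4 and 18.5, 5.83, 3.00 and 22.6 CPM at day 2 (3.82 ± 0.75, adjusted p = 0.0109). Both sets of libraries were fully apart, which for Myh8 was a condition of its place among the largest increases. Myh3, the embryonic heavy chain and the most abundant one, had 6187, 5232, 4347 and 5549.5 CPM at day 4, against 1239, 578, 591 and 1646 CPM at day 2, again with no overlap but without passing the test (2.39 ± 0.40, adjusted p = 0.0598; 0.000698 with the block). Among the adult chains, Myh1 (fast IIx) had 335, 293, 143 and 411 CPM at day 4 and 70.9, 21.7, 6.48 and 51.2 CPM at day 2 (2.98 ± 0.83, adjusted p = 0.0242; 0.0834 without WT day 2 replicate 4). Myh7 (slow) had 259.9, 139.6, 83.0 and 160.2 CPM at day 4 and 26.2, 16.0, 7.29 and 29.2 CPM at day 2 (3.03 ± 0.56, adjusted p = 0.000555). In both chains every day 4 library was above every day 2 library. Myh2 (fast IIa) had 8.90 ± 4.30 CPM at day 4 and 0.785 ± 0.643 CPM at day 2 (3.51 ± 0.73, adjusted p = 0.00327). Myh4 (fast IIb) averaged 25.9 ± 15.1 CPM at day 4 and 3.35 ± 3.67 CPM at day 2 (adjusted p = 0.0675; 0.000443 with the block).

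Shares within gene families were computed from CPM per kilobase of exon; near-identical members of a family can exchange reads, which makes their split uncertain. Myh3 held 91.1 ± 2.18% of the sarcomeric heavy chain signal at day 4 and 94.6 ± 2.20% at day 2, with overlapping groups. Myh1 came next, with 4.69 ± 1.37% at day 4 and 3.06 ± 1.66% at day 2, and Myh7 held 1.86 ± 0.58% and 1.31 ± 0.41%, in the same order of days and with overlap in both. Myh8 held 1.51 ± 0.41% at day 4 and 0.53 ± 0.21% at day 2, without overlap. Among actins, Acta1 (skeletal) held 51.3 ± 3.96% at day 4 and 28.2 ± 6.64% at day 2, while the cytoplasmic Actb held 5.70 ± 0.60% and 18.4 ± 1.34% and Actg1 1.51 ± 0.17% and 7.27 ± 1.27%, in the same order of days. No library of one day entered the range of the other in these 3 actins. Acta2 (smooth muscle) had the largest mean share at day 2, 35.2 ± 8.24%, and held 23.9 ± 2.42% at day 4. Actc1 held 17.5 ± 2.68% at day 4 and 10.4 ± 3.32% at day 2. Both of these overlapped between the days. Of the tropomyosins, Tpm2 held 73.2 ± 2.51% at day 4 and 50.5 ± 6.90% at day 2, and the cytoplasmic Tpm4 5.50 ± 1.69% at day 4 and 28.4 ± 7.33% at day 2, with no overlap in either.

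Tpm2 rose to 3134 ± 639 CPM at day 4 against 1289 ± 255 CPM at day 2 (log2 change 1.28 ± 0.21, adjusted p = 0.00154). Lmod3, which nucleates thin filaments, had 368, 204, 225 and 349.5 CPM at day 4 and 86.8, 50.5, 28.7 and 119.5 CPM at day 2 (2.01 ± 0.50, adjusted p = 0.00536). Tnnt2, the embryonic and cardiac troponin T, had 1564, 1973, 1812 and 1743 CPM at day 4, against 638, 466, 451 and 803 CPM at day 2 (1.59 ± 0.21, adjusted p = 0.0245; 0.0795 without WT day 2 replicate 4), and Tpm1 rose by 0.88 ± 0.27 (adjusted p = 0.0132; 0.0629 without that library). Day 4 libraries were the higher ones throughout for these 4 genes. Acta1 and Actc1, the skeletal and cardiac actins, averaged 5286 ± 1094 and 1956 ± 742 CPM at day 4 against 1777 ± 459.8 and 688 ± 216 CPM at day 2. Their groups did not overlap, and they were called with the block (adjusted p = 0.00547 and 0.0187) but not in the main test (0.0639 and 0.122).

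Of the Z-disc genes, Cavin4, a caveolar coat protein of muscle, had 591, 634, 560.5 and 699 CPM at day 4 and 211, 144, 110.4 and 252 CPM at day 2 (log2 change 1.79 ± 0.28, adjusted p = 6.38e-06). Actn2, the alpha-actinin that cross-links thin filaments at the Z-disc, had 74.6, 94.9, 90.9 and 74.0 CPM at day 4 and 7.71, 5.41, 3.38 and 14.3 CPM at day 2 (3.44 ± 0.44, adjusted p = 0.00277). All day 4 libraries were above all day 2 libraries in both, which for Actn2 was a condition of its place among the largest increases. Myoz2 (calsarcin, a calcineurin-binding Z-disc protein) had 98.6, 159.7, 187 and 155 CPM at day 4 and 16.0, 16.4, 15.6 and 47.7 CPM at day 2 (2.65 ± 0.44, adjusted p = 0.00305), and the small heat shock protein gene Hspb8 rose by 0.87 ± 0.19 (adjusted p = 0.00611). Xirp1, a filamin-binding repair protein, rose by 1.32 ± 0.35 (adjusted p = 0.0316), a call lost in 6 of 8 omissions (up to 0.115 without WT day 2 replicate 4). Its relative Xirp2 did not pass the test (15.6, 16.2, 15.0 and 79.9 CPM at day 4, 16.9, 43.7, 20.2 and 53.8 CPM at day 2, adjusted p = 0.961). Flnc itself averaged 1677 ± 558 CPM at day 4 and 1222 ± 475 CPM at day 2 (0.46 ± 0.38, adjusted p = 0.453), with overlapping groups.

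**Figure D3:**
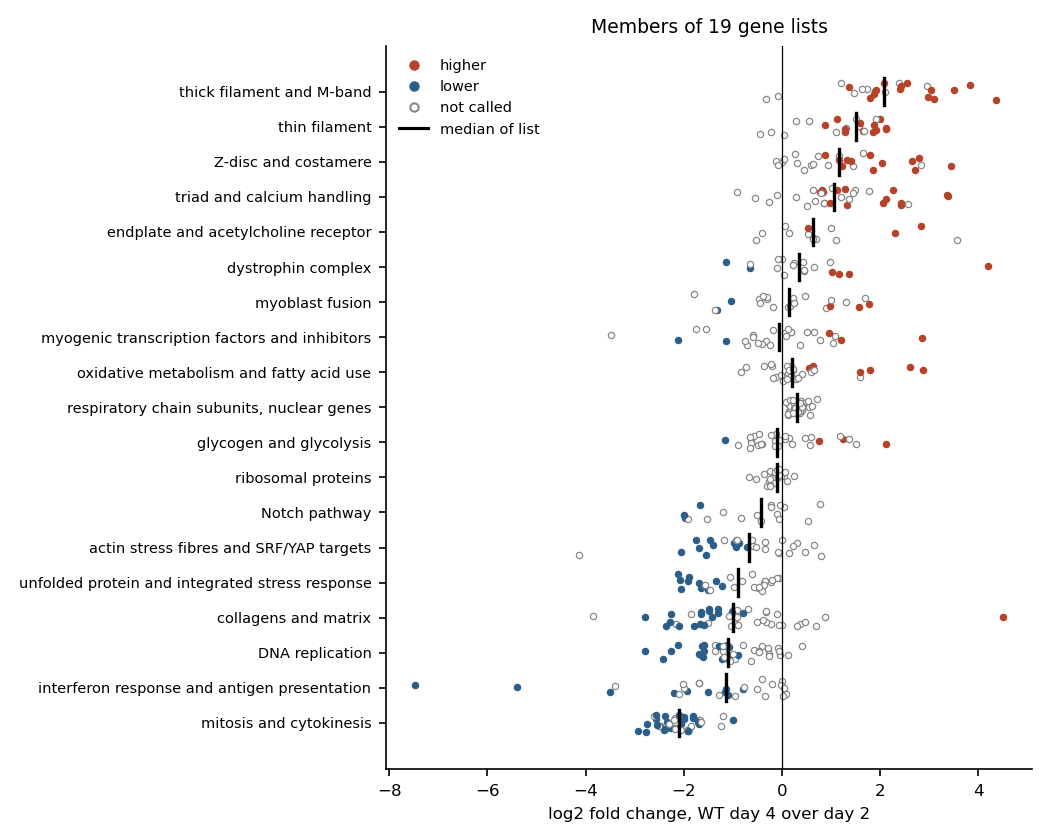
Log2 change, WT day 4 over WT day 2, of each tested member of 19 gene lists (1 point per gene, called genes coloured) with the median of each list marked. The medians of the sarcomere and triad lists lie to the right of 0, and those of the replication, mitosis, matrix, stress response and interferon lists to the left.

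The 250 bases before the annotated start of 3 genes that rose are shown because they hold sites of the factors whose genes are described above, MEF2 and the E-box factors MyoD and myogenin, and TEAD. Capitals mark the MEF2 site, the E-box CAGCTG and the M-CAT site GGAATG (which in Tnnt2 lies on the other strand), each searched on both strands. The sequences are from RefSeq, build GRCm38.p6: Myoz2 at chr3:123034988-123035237 on the minus strand, Myh8 at chr11:67276874-67277123 on the plus strand and Tnnt2 at chr1:135836084-135836333 on the plus strand.
Myoz2: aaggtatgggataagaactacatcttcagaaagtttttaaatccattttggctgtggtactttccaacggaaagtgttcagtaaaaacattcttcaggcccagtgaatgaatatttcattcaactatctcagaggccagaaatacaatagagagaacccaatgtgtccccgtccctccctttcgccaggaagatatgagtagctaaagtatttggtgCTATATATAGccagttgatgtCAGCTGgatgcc
Myh8: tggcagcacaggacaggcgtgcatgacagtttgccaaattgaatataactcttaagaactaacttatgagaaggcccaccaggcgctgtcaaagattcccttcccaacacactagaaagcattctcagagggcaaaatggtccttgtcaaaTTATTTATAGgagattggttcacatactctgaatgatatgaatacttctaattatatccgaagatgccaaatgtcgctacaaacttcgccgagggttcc
Tnnt2: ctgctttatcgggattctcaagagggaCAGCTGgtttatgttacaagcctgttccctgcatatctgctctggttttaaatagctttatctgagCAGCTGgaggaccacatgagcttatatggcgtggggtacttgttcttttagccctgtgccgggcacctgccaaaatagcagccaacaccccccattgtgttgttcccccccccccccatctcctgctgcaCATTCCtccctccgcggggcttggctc
In Myoz2 the MEF2 site began at position -33 and the E-box at -12 from the start, with 28 bases of the window in an annotated exon; in Myh8 the MEF2 site began at -99. Tnnt2 had E-boxes at -223 and -157 and an M-CAT site at -27. Over the 10509 tested genes with a window, 1.81% held a MEF2 site, against 24 of 469 genes that rose (5.12%) and 9 of 714 that fell (1.26%). The E-box was in 16.2% of windows of genes that rose, 12.3% of those that fell and 12.2% of all, and it was in 15 of 43 called sarcomere and triad genes (34.9%), against 29 of all 79 tested genes of those lists (36.7%). M-CAT was in 16.2% of genes that rose, 13.7% of those that fell and 10.8% of all. Within the sarcomere and triad lists, MEF2 was in 8 of 43 called genes (18.6%) and in 14 of all 79 tested (17.7%). For M-CAT these were 8 of 43 (18.6%) and 15 of 79 (19%), so called members held either site about as often as all tested members. A match describes letters in a window and not a used site.

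The triad, where the T-tubule meets the calcium store, was represented by 32 tested genes, of which 15 rose and none fell (median log2 change 1.07; 22 rose and 1 fell with the block, and 6 rose without WT day 2 replicate 3). Cav3, the muscle caveolin, had 76.2, 120.1, 99.3 and 42.4 CPM at day 4 and 12.2, 6.25, 3.81 and 9.97 CPM at day 2 (log2 change 3.39 ± 0.49, adjusted p = 0.00129). Camk2a, a calcium-dependent kinase, had 121, 85.2, 61.6 and 89.2 CPM at day 4 and 28.2, 14.1, 13.3 and 30.5 CPM at day 2 (2.05 ± 0.37, adjusted p = 0.00141). Neither gene's groups overlapped, which for Cav3 was a condition of its place among the largest increases. Cacnb1, the beta subunit of the voltage sensor, and Jph1, the junctophilin that bridges the membranes, rose by 1.33 ± 0.17 and 1.12 ± 0.24 (adjusted p = 0.00354 and 0.00421). Casq1, the calcium-binding protein of the store, rose by 3.35 ± 0.73 (adjusted p = 0.0135; 0.0532 without WT day 2 replicate 3).

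At the endplate, 3 of 15 tested genes rose (median 0.62), beside 4.33% of all genes, and none of the 15 did without WT day 2 replicate 4. They were Colq, the collagen tail that anchors acetylcholinesterase (2.31 ± 0.48, adjusted p = 0.0224; 0.0787 without that library), Ache (2.83 ± 0.82, adjusted p = 0.0473; 0.138 without it) and Prkar1a, a regulatory subunit of protein kinase A (0.54 ± 0.16, adjusted p = 0.0134; 0.0673 without it and 0.0859 with the block). The calls of Colq, Ache and Prkar1a were lost in 3, 6 and 2 of 8 omissions. Ache was near the floor, with at most 2.42 CPM in any of the 8 libraries. In the dystrophin complex, which ties the cytoskeleton to the matrix, 4 of 18 tested genes rose and 2 fell (median 0.34), beside 4.33% and 6.45% of all genes. Dmd (dystrophin) was near the floor at day 2, with 8.05, 3.54, 2.00 and 6.17 CPM at day 4 and 0.257, 0.0762, 0 and 0.759 CPM at day 2 (adjusted p = 0.00688). The muscle sarcoglycan genes Sgca and Sgcd rose by 1.03 ± 0.34 and 1.16 ± 0.28 (adjusted p = 0.0232 and 0.00994), and the widely expressed epsilon sarcoglycan Sgce fell by 0.66 ± 0.12 (adjusted p = 0.0062), as did Dtnb (beta-dystrobrevin, -1.13 ± 0.19, adjusted p = 0.00779). Sgca lost its call in 4 of 8 omissions (adjusted p up to 0.0973 without WT day 2 replicate 4) and Sgcd without WT day 4 replicate 1 (0.0727).

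Of 30 glycogen and glycolysis genes 3 rose and 1 fell (median -0.11), of 10 phosphagen and adenylate enzymes 2 rose (0.48), and of 31 genes of oxidative metabolism and fatty acid use 6 rose (0.20), beside 4.33% of all genes higher and 6.45% lower. Some that rose are muscle forms and others, such as Gyg, Pdha1 and Cd36, are more widely expressed. Pfkm, the muscle phosphofructokinase, had 294, 335, 306 and 341 CPM at day 4 and 172, 119, 66.8 and 177 CPM at day 2 (1.25 ± 0.33, adjusted p = 0.00127). Pygm, the muscle glycogen phosphorylase, rose by 2.12 ± 0.27 (adjusted p = 0.0197; 0.0656 without WT day 2 replicate 4). Gyg, the primer of glycogen, had 197, 214, 203 and 209 CPM at day 4 and 122, 118, 126 and 125 CPM at day 2 (0.75 ± 0.03, adjusted p = 0.00537). Its libraries were the most even of this group. Pgm2, of the phosphoglucomutase family, fell by 1.17 ± 0.21 (adjusted p = 0.000212).

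For fatty acid use, Cd36 (the uptake receptor) had 63.3, 32.2, 53.7 and 84.7 CPM at day 4 and 7.11, 4.50, 3.24 and 17.1 CPM at day 2 (2.88 ± 0.59, adjusted p = 0.00931), and Fabp3 (the muscle carrier) rose by 1.80 ± 0.30 (adjusted p = 0.000881). Mb, myoglobin, rose to 214 ± 66.6 CPM against 35.2 ± 18.7 CPM at day 2 (adjusted p = 0.0206; 0.0694 without WT day 2 replicate 4). Pdha1, of pyruvate dehydrogenase, rose by 0.62 ± 0.21 (adjusted p = 0.0261, lost in 5 of 8 omissions, up to 0.0978 without WT day 2 replicate 3). The muscle adenylate enzymes Ak1 and Adssl1 rose by 1.07 ± 0.42 and 0.92 ± 0.41 (adjusted p = 0.00901 and 0.0302). The call of Adssl1 was lost in 4 of 8 omissions (up to 0.133 without WT day 2 replicate 4). Ckm, the muscle creatine kinase, averaged 221 ± 56.6 CPM at day 4 and 145 ± 30.4 CPM at day 2 (0.61 ± 0.24, adjusted p = 0.648). None of 35 nuclear genes of respiratory chain subunits was called. All 35 had positive log2 changes of 0.09 to 0.72 (median 0.30), and the share of positive changes over all genes was not counted. Their summed CPM overlapped between the days, with 7566, 11611, 10582 and 7935 at day 4 and 7403, 10144, 6248 and 8300 at day 2. Mitochondrially encoded RNA made up 3.01 ± 0.93% of counts at day 4 and 2.69 ± 0.44% at day 2 (exact permutation test, two-sided, p = 0.686).

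Many cell-cycle genes fell. Of 40 tested mitosis and cytokinesis genes 25 fell and none rose, and all 40 had negative log2 changes (median -2.09; -3.47 without WT day 4 replicate 5). Of 40 replication genes 15 fell and none rose (median -1.09). Over all genes 6.45% fell. The level of the mitosis genes depended on the library: their summed CPM was 159, 176, 137 and 735 at day 4, against 517, 1652, 607 and 1716 at day 2. Day 4 replicate 5 lay above 2 of the day 2 libraries. Without it all 40 mitosis genes fell, and without WT day 2 replicate 3 or WT day 4 replicate 1 only 8 did; the block called 39. Replication genes called lay between 2 (without WT day 4 replicate 1 or WT day 2 replicate 3) and 18 (without WT day 2 replicate 1).

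Foxm1, the factor that drives G2 and M genes, had 3.36, 4.00, 2.16 and 11.4 CPM at day 4 and 18.0, 35.4, 17.3 and 30.6 CPM at day 2 (log2 change -2.27 ± 0.56, adjusted p = 0.00433). Aurkb, the chromosomal passenger kinase, had 0.841, 0.931, 0.738 and 3.92 CPM at day 4 and 4.62, 19.3, 6.20 and 14.3 CPM at day 2 (-2.76 ± 0.71, adjusted p = 0.00845). In both genes the groups stayed apart despite the higher value of day 4 replicate 5. Kif23, a kinesin of the midbody, fell by 2.56 ± 0.93 (adjusted p = 0.00852) and Mybl2 (B-Myb) by 2.93 ± 0.64 (adjusted p = 0.0102; 0.0733 without WT day 2 replicate 3). The mitotic kinase gene Plk1 fell by 2.57 ± 0.88 (adjusted p = 0.0214), the spindle protein gene Dlgap5 by 2.74 ± 0.86 (adjusted p = 0.0123), Pimreg by 2.75 ± 0.95 (adjusted p = 0.0499) and the cyclin gene Ccnb2 by 2.55 ± 0.82 (adjusted p = 0.0165). These 4 calls were lost in 4, 1, 6 and 3 of 8 omissions, with adjusted p up to 0.0864 (Plk1) and 0.169 (Pimreg) without WT day 2 replicate 3 and 0.0515 (Dlgap5) and 0.067 (Ccnb2) without WT day 4 replicate 1. Dlgap5 fell by 4.22 without WT day 4 replicate 5. Mki67, the proliferation marker Ki-67, had 2.88, 0.186, 1.37 and 36.7 CPM at day 4 and 18.0, 49.5, 21.9 and 69.1 CPM at day 2, which overlapped (-1.93 ± 1.52, adjusted p = 0.158; 0.0159 with the block). Without WT day 4 replicate 5 its change was -4.67 (adjusted p = 0.002), and with any other 1 library left out it did not pass.

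The 250 bases before Ccnb2, on the minus strand at chr9:70421555-70421804 (RefSeq, GRCm38.p6), are shown for the CCAAT boxes of a gene of G2 and M. Capitals mark the CCAAT box and the letters TTTGAA of the element called CHR, searched on both strands. The CHR of G2 and M genes is known from close to the start, downstream of the CCAAT boxes; the match here lies upstream of them.
Ccnb2: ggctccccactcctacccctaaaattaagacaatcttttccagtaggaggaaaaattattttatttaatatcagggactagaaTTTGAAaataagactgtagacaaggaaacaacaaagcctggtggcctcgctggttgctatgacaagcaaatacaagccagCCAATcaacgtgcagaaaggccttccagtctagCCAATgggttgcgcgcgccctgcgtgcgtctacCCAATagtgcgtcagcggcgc
CCAAT boxes began at -87, -54 and -21 and the TTTGAA match at -167. A CCAAT box was in 25 of 32 windows of tested mitosis genes (78.1%) and 36.8% of all windows, and TTTGAA in 12 of 32 (37.5%) and 10.4% of all. Over all 714 genes that fell and had a window, the shares were 39.6% and 11.1%, near those of all windows.

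Replication genes were led by Dut, which removes dUTP (8.56 ± 1.57 CPM at day 4, 25.5 ± 9.36 CPM at day 2, log2 change -1.58 ± 0.36, adjusted p = 0.00331). DNA ligase 1 (Lig1), the licensing factor Cdc6 and the helicase subunit Mcm5 fell by 1.61 ± 0.43, 2.42 ± 0.52 and 2.27 ± 0.63 (adjusted p = 0.0103, 0.0157 and 0.0169). Lig1 and Mcm5 lost their calls without WT day 2 replicate 3 (adjusted p = 0.0636 and 0.103) and Cdc6 without WT day 4 replicate 1 (0.059). Among 19 CDK inhibitors, cyclins D and pocket proteins 2 rose and 1 fell (median 0.08), beside 4.33% and 6.45% of all genes. Cdkn1a, the gene of p21, had 3334, 5151, 3712 and 2503 CPM at day 4 and 2144, 1250.4, 941 and 1383 CPM at day 2 (1.36 ± 0.33, adjusted p = 0.00477), with no overlap. It held 97.7 ± 0.85% of the CPM per kilobase of the Cip/Kip inhibitors at day 4 and 93.7 ± 2.10% at day 2. Cdk2 rose by 0.98 ± 0.13 (adjusted p = 0.00179) while Cdk4 fell by 0.80 ± 0.23 (adjusted p = 0.0215; 0.094 without WT day 2 replicate 3). Cyclin D1 (Ccnd1) averaged 81.3 ± 21.6 CPM at day 4 and 116 ± 44.4 CPM at day 2, with overlap (adjusted p = 0.576).

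**Figure D4:**
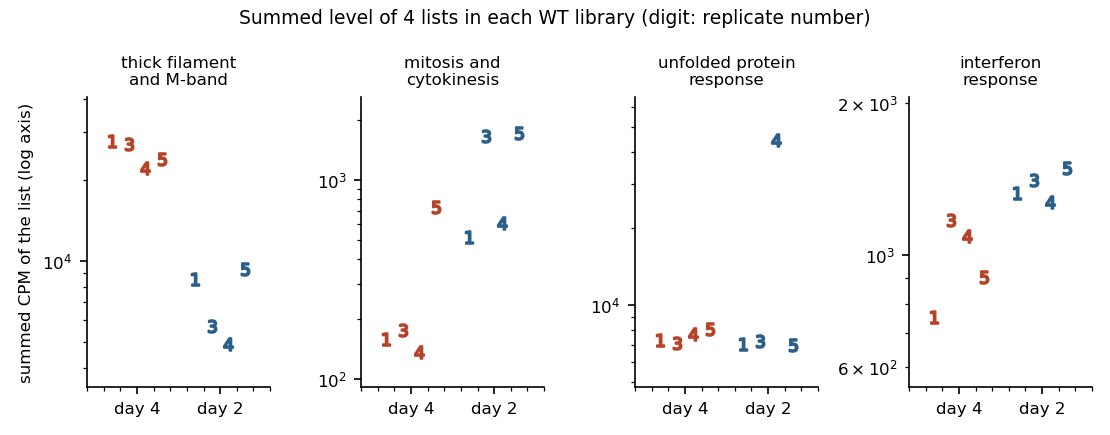
Summed TMM-scaled CPM per library (log axis) of the thick filament, mitosis, unfolded protein and interferon lists, WT day 4 left and WT day 2 right, with digits giving the replicate number. Day 2 replicate 4 stands alone at 44587 CPM in the unfolded protein panel, and day 4 replicate 5 at 735 CPM among the day 4 libraries in the mitosis panel.

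Of 45 tested matrix genes, 17 fell and 1 rose (median -1.005; 24 fell with the block, and 9 without WT day 4 replicate 5 or WT day 2 replicate 4). Col6a3, of the collagen VI network around muscle fibres, had 8.77, 7.82, 13.9 and 13.7 CPM at day 4 and 44.3, 48.1, 65.5 and 58.5 CPM at day 2 (log2 change -2.28 ± 0.25, adjusted p = 0.000216). Col1a2 (fibrillar collagen I) had 159, 188, 112 and 126 CPM at day 4 and 516, 417, 509.6 and 320.2 CPM at day 2 (-1.60 ± 0.23, adjusted p = 0.00259). The day 4 libraries were all below the day 2 libraries. Fbln2 and Thbs2, matrix glycoproteins, fell by 1.65 ± 0.30 and 1.65 ± 0.25 (adjusted p = 0.000423 and 0.000543). The gene that rose, Eln (elastin), was near the floor at 0.559 to 0.843 CPM on day 4, with a read in 1 day 2 library (0.0856 CPM).

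Stress fibre genes and targets of SRF and YAP fell in 10 of 28 cases and rose in none (median -0.66). Flna, the widely expressed filamin, had 559.6, 1076, 948 and 424 CPM at day 4 and 2787, 3232, 2678 and 1380.5 CPM at day 2 (-1.74 ± 0.42, adjusted p = 0.00237), while its muscle relative Flnc did not pass the test (above). Actg1 and Tpm4 fell by 1.55 ± 0.34 and 1.69 ± 0.37 (adjusted p = 0.000638 and 0.000308). Cald1 (caldesmon) had 403, 366, 369 and 383 CPM at day 4 and 722, 801, 734 and 658 CPM at day 2 (-0.94 ± 0.07, adjusted p = 0.00237).

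In the Notch pathway, which keeps muscle stem cells undifferentiated, 3 of 17 tested genes fell and none rose (median -0.43), beside 6.45% of all genes lower. With the block 2 rose and 5 fell. Notch3 had 32.1, 22.7, 17.1 and 28.3 CPM at day 4 and 97.5, 83.9, 85.0 and 132 CPM at day 2 (-1.99 ± 0.25, adjusted p = 0.00497). The target Hey1 fell by 1.97 ± 0.46 (adjusted p = 0.00219) and the fringe enzyme Lfng by 1.66 ± 0.53 (adjusted p = 0.0258, lost in 5 of 8 omissions, up to 0.0919 without WT day 4 replicate 1). Of 27 TGF-beta, activin and BMP genes 2 rose and 2 fell in the main test (median -0.04), counts near the 4.33% and 6.45% of all genes. With the block 4 of 26 rose and 6 fell, beside 821 higher and 1044 lower of 12177 genes. Fst, the secreted follistatin that traps myostatin and activin, had 319, 164, 209.7 and 163 CPM at day 4 and 35.2, 23.3, 5.48 and 41.9 CPM at day 2 (3.02 ± 0.70, adjusted p = 3.08e-05). Tgfb3, a ligand, rose by 1.18 ± 0.27 (adjusted p = 0.00394). Bmp1, a protease that matures collagens, and Ltbp3, which stores latent TGF-beta, fell by 0.85 ± 0.24 and 0.89 ± 0.29 (adjusted p = 0.0214 and 0.047, lost in 4 and 7 of 8 omissions, up to 0.0831 without WT day 2 replicate 3 and 0.162 without WT day 2 replicate 1).

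Of 19 genes of the IGF axis and imprinted genes 2 rose and 3 fell (median -0.78), beside 4.33% of all genes higher and 6.45% lower. With the block 7 fell. H19, an imprinted noncoding RNA of muscle, had 12373, 18503, 12840.1 and 15466 CPM at day 4 and 7569, 4778, 3853 and 8549 CPM at day 2 (1.26 ± 0.30, adjusted p = 0.0159; 0.0679 without WT day 2 replicate 4). Grb10, an adaptor that dampens insulin receptor signals, rose to 2.87 ± 1.11 CPM against 0.543 ± 0.327 CPM at day 2 (adjusted p = 0.00219). Igfbp2, an IGF carrier, fell to 52.2 ± 32.4 CPM against 244 ± 143 CPM at day 2 (-2.23 ± 0.66, adjusted p = 0.0113; 0.0578 without WT day 2 replicate 3).

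The unfolded protein response rested on WT day 2 replicate 4. Of 28 tested genes 10 fell and none rose (median -0.89), but without that library 1 rose and 1 fell (median 0.14), and the block called 1. Hspa5, the ER chaperone BiP, had 1154, 811, 1136 and 1409 CPM at day 4 and 844, 885, 11863 and 1009 CPM at day 2. Its log2 change of -1.69 ± 0.94 (adjusted p = 0.0265) turned to 0.31 (adjusted p = 0.623) without the library, and the block gave adjusted p = 0.633. Calr (calreticulin), Pdia4 (a disulfide isomerase) and Creld2 had 6554, 2056 and 591 CPM in that library and at most 1051, 157 and 54.1 CPM in the other day 2 libraries. Their calls (adjusted p = 0.00505, 0.00436 and 0.00666) were lost without it (0.387, 0.957 and 0.95) and with the block (0.19, 0.465 and 0.339). Calr, Pdia4 and Creld2 had log2 changes of -1.64, -2.12 and -1.90 with the library and -0.34, -0.03 and -0.04 without it. Edem1, of ER-associated degradation, kept its call at a smaller change: it had 30.1, 30.0, 36.8 and 41.0 CPM at day 4, below the 48.9, 65.2 and 72.4 CPM of the other day 2 libraries as well as the 388 CPM of replicate 4 (-2.06 ± 0.68, adjusted p = 0.000511; -0.85, adjusted p = 0.00681 without replicate 4).

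Of the 8 called genes of this list with a window, 4 held the ER stress element, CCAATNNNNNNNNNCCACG on either strand, found in 16 of 10509 windows (0.152%). These stretches (RefSeq, GRCm38.p6) show the element in capitals between 5 flanking bases: Hspa5 at chr2:34772020-34772048 on the plus strand, Hsp90b1 at chr10:86705633-86705661 and Creld2 at chr15:88819515-88819543 on the minus strand, and Calr at chr8:84847070-84847098 on the plus strand.
Hspa5: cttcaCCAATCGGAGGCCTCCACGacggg
Hsp90b1: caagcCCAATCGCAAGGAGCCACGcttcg
Creld2: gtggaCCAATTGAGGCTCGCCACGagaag
Calr: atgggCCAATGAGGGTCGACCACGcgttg
Hsp90b1, named after its values were seen and given without them, held a second copy at -107; the copies shown begin at -65, -212, -126 and -162 in the order printed. The element holds a CCAAT box, so the 2 motifs overlap. The element was in 7 of 26 windows of tested genes of the list (26.9%).

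Interferon response and antigen presentation genes fell in 11 of 28 cases and rose in none (median -1.15); 13 fell with the block, and 9 to 11 when any 1 library was left out. H2-D1, a class I histocompatibility chain, had 35.7, 54.8, 47.6 and 43.3 CPM at day 4 and 102, 99.1, 84.8 and 104 CPM at day 2 (log2 change -1.10 ± 0.15, adjusted p = 0.00237). Irf9, a transcription factor of the pathway, had 8.23, 10.7, 9.80 and 11.4 CPM at day 4 and 15.1, 20.1, 34.8 and 19.0 CPM at day 2 (-1.15 ± 0.27, adjusted p = 0.0026). Neither had overlapping groups. Oasl2 had a few reads at day 4 (0, 0, 0.105 and 0.115 CPM) and 0.599 to 6.48 CPM at day 2 (adjusted p = 0.000638).

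Of 17 splicing regulators 3 rose and 1 fell (median 0.28), and of 21 muscle ubiquitin ligase and autophagy genes 3 rose (0.39), beside 4.33% of all genes higher and 6.45% lower. Rbm38 rose by 1.32 ± 0.24 (adjusted p = 0.00172). Rbfox1 and Rbm24, muscle splicing factors, rose by 2.46 ± 0.59 and 1.48 ± 0.28 (adjusted p = 0.0289 and 0.0483), and Ptbp1, the repressor of muscle exons, fell by 0.92 ± 0.38 (adjusted p = 0.0335). These 3 calls were lost in 5, 7 and 5 of 8 omissions (up to 0.103 for Rbfox1 without WT day 4 replicate 5, 0.146 for Rbm24 without WT day 2 replicate 3 and 0.302 for Ptbp1 without WT day 2 replicate 4, where its change was -0.52). Trim63 (MuRF1, a ligase of the sarcomere) had 70.1, 64.6, 83.3 and 63.4 CPM at day 4 and 22.6, 13.5, 21.1 and 24.1 CPM at day 2 (1.79 ± 0.21, adjusted p = 0.00939), and its relative Trim54 rose by 1.29 ± 0.26 (adjusted p = 0.00205). Of 27 sterol synthesis genes 1 rose, a share no higher than that of all genes: Dhcr7 (1.10 ± 0.32, adjusted p = 0.0453, lost in 7 of 8 omissions, up to 0.169 without WT day 2 replicate 4), and of 26 ribosomal protein genes none was called.

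Markers of other cells were read beside these results. Their counts of called genes stand beside 4.33% of all genes higher and 6.45% lower. Myoblast and reserve cell markers summed to 304 to 367 CPM at day 4 and 526 to 679 CPM at day 2; 3 of 13 fell (Vcam1, Notch3 and Met) and 1 rose (Spry1, adjusted p = 0.0367, lost in 5 of 8 omissions, up to 0.0993 without WT day 2 replicate 3). Vcam1, an adhesion molecule of reserve cells, had 25.6, 21.2, 25.0 and 21.3 CPM at day 4 and 69.3, 79.7, 72.9 and 97.0 CPM at day 2 (log2 change -1.78 ± 0.13, adjusted p = 0.000732). Pax7, the stem cell factor, had at most 1.56 CPM at day 4 and 5.31 CPM at day 2 (adjusted p = 0.211). Osteoblast and chondrocyte markers summed to 287 to 745 CPM at day 4 and 1272 to 1991 CPM at day 2. Of these 2 of 5 fell, Spp1 (osteopontin, 385 ± 213 CPM at day 4 and 1482 ± 306 CPM at day 2, adjusted p = 0.00501) and Runx2 (-1.20 ± 0.39, adjusted p = 0.017, and 0.0926 without WT day 2 replicate 4), with Ibsp and Acan at 0. Another 1 of the 5 had a positive log2 change (2.14, not called), and the list median was -0.34.

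Fibroblast markers summed to 676 to 1583 CPM at day 4 and 1111 to 1861 CPM at day 2, and 3 of 8 fell, among them Col3a1 (322 ± 101 CPM at day 4, 793 ± 91.6 CPM at day 2, adjusted p = 0.0062) and Pdgfrb (-2.09 ± 0.92, adjusted p = 0.0235). The Pdgfrb call was lost without WT day 4 replicate 5 (0.0709) and without WT day 2 replicate 4. Thy1 and Tcf21 had no read. Of the 8 tested fibroblast markers, 3 had positive log2 changes (up to 0.88), none of them called, and the list median was -0.35. Of 4 adipocyte markers 1 fell, Cebpa (adjusted p = 0.00322), with Adipoq, Plin1, Cidec, Lep and Retn at 0. Smooth muscle markers summed to 5231 to 9835 CPM at day 4 and 4183 to 9941 CPM at day 2, and 1 of 8 fell. Macrophage and endothelial markers were at or near 0: they summed to at most 4.06 and 9.86 CPM at day 4 and 3.77 and 14.8 CPM at day 2, with Adgre1, Tyrobp, Cdh5 and Emcn at 0. The part of reserve and fibroblast-type cells in the lower matrix, Notch and interferon genes was not tested.

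The same step in the FlncKO line was tested against the WT step. The edited gene had 128 CPM at KO day 4 and 80.6 CPM at KO day 2, far below its WT levels. No gene differed between the steps at adjusted p under 0.05 (0% of 13780, edgeR), although 910 did at an unadjusted p under 0.05, and the smallest adjusted p was 0.0676. DESeq2 called 61 genes and the replicate block 54, and with 1 WT library left out edgeR called at most 7. Within the KO line alone 93 genes rose and 59 fell. Genes that rose in WT had a median log2 change of 1.304 there and 0.53 in KO, and 520 of the 597 were positive in KO; genes that fell had -1.28 in WT and -0.39 in KO, and 746 of the 889 were negative in KO. Over all 13780 tested genes the KO median was -0.0038, and the share of each sign was not counted. The genes were chosen in WT, so the smaller KO medians are a description.

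By list, the thick filament median was 2.09 in the WT step and 2.53 in the KO step, the thin filament median 1.51 and 1.59, and the mitosis median -2.09 and -1.43. Replication had -1.09 in WT and -0.28 in KO, interferon genes -1.15 and -0.49, and sterol synthesis -0.10 and -1.02. No list member differed between the steps by the test. The genes with the smallest p of the difference, on the WT-higher side, were Arhgef6, Fam189a2, Sgcd, Osbpl3, Daam2, Rps6ka5, Tmem246 and Arl4a. Arhgef6, a Rac exchange factor, had 68.7, 58.5, 74.6 and 60.2 CPM at WT day 4 and 9.12, 3.20, 9.29 and 10.2 CPM at WT day 2 (log2 change 3.04 ± 0.40, adjusted p = 3.08e-05), beside averages of 5.44 CPM at KO day 4 and 4.81 CPM at KO day 2 (0.18); the difference of 2.86 had adjusted p = 0.097. Arl4a and Rps6ka5 rose by 1.59 ± 0.12 and 1.71 ± 0.33 in WT, beside 0.09 and -0.04 in KO (adjusted p of the difference 0.149 for each).

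On the WT-lower side stood Lurap1l, Cmtm3, Stard5, Emb, Mmp11, Gpr176 and Adss. Cmtm3 had 12.4, 21.4, 18.5 and 11.8 CPM at WT day 4 and 41.4, 49.9, 47.9 and 39.4 CPM at WT day 2 (-1.48 ± 0.23, adjusted p = 0.000123), beside 48.9 CPM at KO day 4 and 47.8 CPM at KO day 2 (adjusted p of the difference 0.111). Adss, the ubiquitous adenylosuccinate synthase, fell by 1.26 ± 0.12 in WT, beside 0.00 in KO (adjusted p of the difference 0.122), while its muscle form Adssl1 rose in WT (above). Among the genes of both sides, the WT call of Mmp11 was lost without WT day 2 replicate 4 (log2 change -0.56 against -1.02 with it, adjusted p = 0.2) and with the block (0.051), that of Emb without WT day 4 replicate 3 (0.0667) and that of Daam2 without WT day 2 replicate 4 (0.0591).

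The levels of these genes over the 5 sampled days placed the step. Myog averaged 26.3, 179, 575, 1209 and 1196 CPM on days 0, 1, 2, 4 and 6, and Mymk 36.9, 145, 685, 1704 and 1756 CPM, so that the means of days 4 and 6 lay close together in both. Cdkn1a had 244, 607, 1429, 3675 and 3896 CPM in the same order of days. Myl2, Mef2c and Casq1 had higher means at day 6 than at day 4: Myl2 had 0.392, 0.189, 2.27, 46.2 and 176 CPM, Mef2c 15.4, 25.1, 44.1, 317 and 613 CPM, and Casq1 0.197, 0.371, 1.499, 15.1 and 43.0 CPM. Id3 had 233, 33.8, 11.1, 2.60 and 3.13 CPM and Foxm1 193, 101, 25.3, 5.24 and 3.32 CPM, most of their decline lying before day 2. Col1a2 had 697, 765, 441, 146 and 64.3 CPM, and Hey1 12.5, 25.6, 33.9, 8.60 and 3.39 CPM, with the highest mean at day 2, where the SD was 23.1 CPM. The transitions other than day 2 to day 4 were not tested here.

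**Figure D5:**
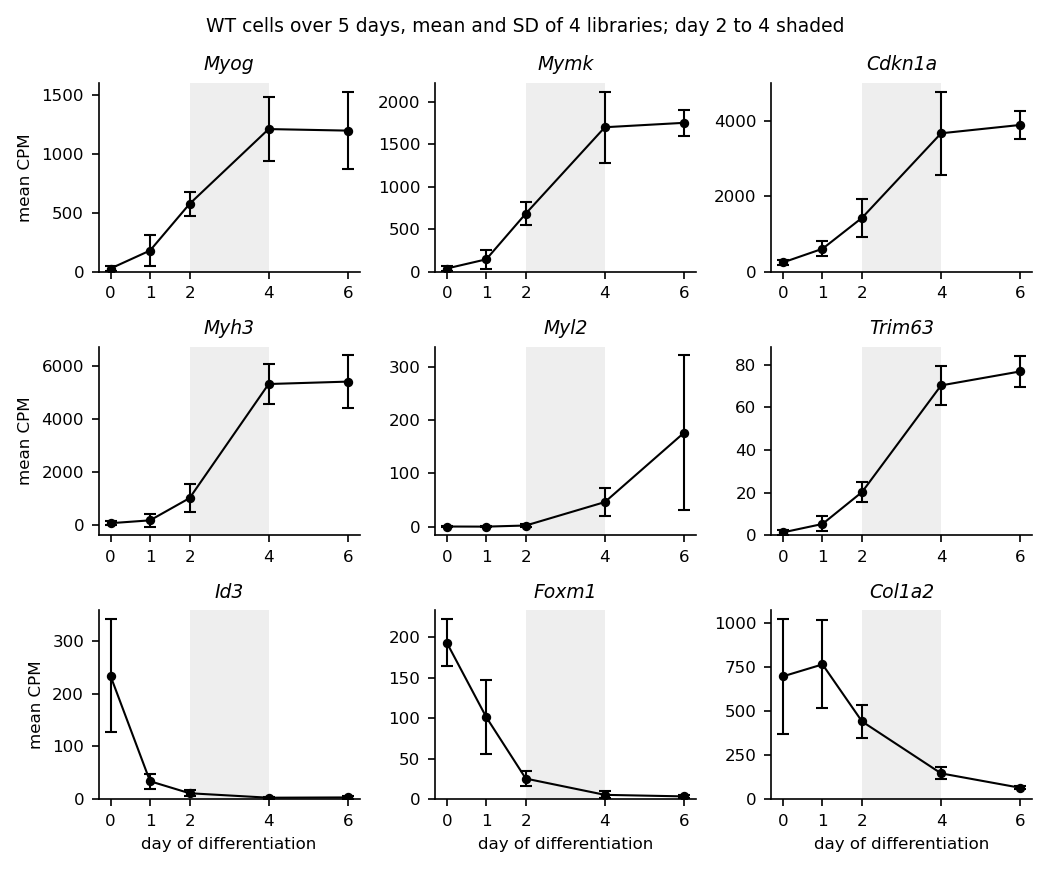
Mean TMM-scaled CPM ± SD of 9 genes in WT cells on days 0, 1, 2, 4 and 6 (4 libraries a day), with the interval from day 2 to day 4 shaded. Myog, Mymk and Cdkn1a level off after day 4 (1196, 1756 and 3896 CPM at day 6), whereas Myl2 goes on to 176 CPM and Id3 and Foxm1 are low from day 2 on.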

How the data were processed

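Polyadenylated RNA of WT and FlncKO C2C12 cells was sequenced from TruSeq Stranded mRNA libraries, per the labels. The authors deposited raw counts of reads per gene, 1 value for each of 29980 genes and 39 libraries. FastQC 0.11.9, STAR 2.7.9, featureCounts 2.0.3 and DESeq2 are named in the submitters' processing notes. The notes list both GRCm38 (mouse) and GRCh38 (human) with no role for either, so the build behind these mouse counts is not settled by them. The strand setting and gene annotation are not given in the sources used here, so overlapping and antisense genes may share reads. Of the deposited counts above 0, 64.4% were even; halving them is an alternative, and counting error cannot be read from the counts alone. A single column that matched no sample was not used. All gene IDs matched GENCODE M21 (GRCm38).

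The main test was edgeR 4.0.16 (R 4.3.3), quasi-likelihood and robust, over all 39 libraries in 10 groups, with TMM scaling and the default expression filter, which left 13780 genes; 10001 had no read. Contrasts were WT day 4 minus WT day 2, the same in KO, and their difference. P-values were adjusted by Benjamini-Hochberg over all genes tested, with 0.05 as threshold. SEs are of the log2 difference, from log2 CPM with a prior count of 2 and 4 libraries a group. TMM factors of the 8 libraries lay between 0.934 and 1.02. Alternatives were DESeq2 1.42.0, its size factors, no filter, the compared groups only, a minimum fold of 1.5, halved counts, each library left out and the replicate number as a block. The block was fitted to the compared groups only, so a block value set beside the main test holds both changes at once. Same-numbered WT libraries deviated together (r = 0.29, 0.30, 0.20 and 0.43 for numbers 1, 3, 4 and 5; KO 0.34, 0.36 and 0.33 for 1, 3 and 5), which pairs them by the threshold of 0.1. The threshold alone does not set pairs apart: WT day 4 number 4 with WT day 2 number 3 gave r = 0.155, also above it. Each WT day 4 library did have its highest r with the WT day 2 library of its own number. The pairing comes from these correlations and not from a stated shared culture.

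Named genes were the 12 largest changes in each direction (at least 5 CPM, no overlap), up to 4 called members per list and direction by p, members of the fusion and myogenic factor lists, the 8 smallest p of the WT and KO difference in each direction, and a short list of known genes. The members, the 34 gene lists and the rule were chosen with earlier results of these data known. A few genes that the rule names are not reported here. Sequences are from RefSeq (GRCm38.p6). Figures were drawn with matplotlib 3.10.9 (Python 3.11.15).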

Additional observations from a re-analysis of the deposited data

Results flagged for a closer look

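Among 364 sets of 4 libraries examined, 30 held a library whose gap to the nearest other as a share of the range passed Dixon's 95% limit; chance marks about 1 in 20 sets. WT day 2 replicate 4 accounted for 9 of them and WT day 4 replicate 5 for 7.

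WT day 2 replicate 4 was the highest of its group for the summed unfolded protein and integrated stress response genes (44587 CPM, the others 6980 to 7219), Hspa5 (11863 CPM), Calr (6554 CPM), Pdia4 (2056 CPM), Creld2 (591 CPM), Edem1 (388 CPM), Lgals3bp (63.9 CPM), Stard5 (52.7 CPM) and Emb (14.7 CPM). WT day 4 replicate 5 was the highest for the summed mitosis genes (735 CPM, the others 137 to 176), Xirp2 (79.9 CPM), Mki67 (36.7 CPM), Dlgap5 (6.69 CPM), Aurkb (3.92 CPM) and the percent of counts from mitochondrial genes (4.39%), and the lowest for Pdgfrb (1.15 CPM).

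WT day 2 replicate 5 was the highest for Pdha1 (572 CPM), Myoz2 (47.7 CPM), Clmp (17.3 CPM), Casq1 (4.01 CPM) and Myf6 (1.19 CPM). WT day 2 replicate 1 was the highest for Pax7 (5.31 CPM), Fxyd6 (1.37 CPM) and Eln (0.0856 CPM), and WT day 2 replicate 3 the lowest for Arhgef6 (3.20 CPM). WT day 4 replicate 4 was the highest for Dtnb (2.69 CPM), Eln (0.843 CPM) and Mybl2 (0.632 CPM), WT day 4 replicate 3 the lowest for Dock5 (24.4 CPM) and WT day 4 replicate 1 the lowest for Pgm2 (13.8 CPM). The cause of these values was not tested.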

How the results depend on the processing

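Higher and lower genes numbered 661 and 759 with DESeq2's size factors, 513 and 570 with no filter, 828 and 991 with DESeq2, 398 and 335 with the compared groups only, 129 and 131 at a minimum fold of 1.5 and 702 and 905 with halved counts. Leaving out 1 WT library in turn gave 305 to 597 higher and 477 to 894 lower, and leaving out 1 WT or KO library gave 0 to 7 genes that differed between the steps. DESeq2 called 61 such genes, the replicate block 54, and the block without WT day 2 library 4, chosen after seeing the data, 52. With the replicate block 821 genes were higher and 1044 lower, and 830 and 1138 with the block and without library 4. The paired fit changed no call of a named gene other than those given beside their values.

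Of 133 called named genes, 84 kept the call in all 8 omissions of a WT library and 49 lost it in at least 1. These values turned sign: Hspa5 (-2.02 to 0.31 over the omissions, positive without WT day 2 replicate 4, and 0.27 with the block and without library 4), Pdia4 (0.047 with the block and without library 4) and the uncalled Xirp2 (-1.11 to 0.23 over the omissions). The mitochondrial share differed by -0.14 to 0.518 percentage points over the omissions and the library total by -7.41 to -4.31 M (the first without WT day 2 replicate 5, exact permutation p = 0.0286). The cause was not tested, beyond the fewer libraries of the omissions. Day 4 libraries held fewer counts, so low genes are less precise there.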
